A study of Homo sapiens with 6 samples.

Results

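The interferon-stimulated genes and their regulators were examined as a set of 52 named genes among the 26485 rows of a gene count table from HuCCT1, a human cell line grown from a bile duct cancer (cholangiocarcinoma) and long in use. The members were picked by symbol: 5 sensors of foreign or misplaced nucleic acid, 12 signal transducers (4 receptor chains, 2 kinases and 6 transcription factors) and 35 effectors. All 52 were found in the table and all 52 passed the filter on low counts. The series holds 3 libraries (a, b and c) of an AQP1 knockout clone (clone 22, made with CRISPR/Cas9) and 3 libraries (a, b and c) of a wild-type CRISPR clone (clone 1). AQP1 encodes the water channel aquaporin-1. Both clones grew in DMEM-F12 with serum, and the labels name no interferon or virus. Each genotype is 1 clone, so genotype and clone cannot be told apart. The labels do not say that letters mark separate cultures, so the p-values below cover spread among libraries only, and that spread may be technical.

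Interferons are secreted proteins that warn cells of infection. Sensors such as RIG-I and TLR3 detect viral RNA and switch on interferon genes through IRF3 and IRF7. Secreted interferon binds receptor pairs at the cell surface, the kinases JAK1 and TYK2 are activated, and STAT2 with IRF9 enters the nucleus as part of the factor that binds the interferon-stimulated response element. Many genes respond, and their products block viral entry, translation, replication and release. Epithelial cells, bile duct cells included, keep many of these genes at a basal level without added interferon.

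The set did not move as a block. In these bulk libraries, fewer cells with a transcript and less of it per cell cannot be told apart. In the knockout clone 27 members were higher, 14 were lower and 11 were not called at an adjusted p of 0.05 (edgeR's quasi-likelihood test with Benjamini-Hochberg adjustment over 14405 tested genes, the test behind each adjusted p below). The called share was 78.8% of members, beside 74.4% of all genes tested. Members called higher made up 51.9%, beside 37.1% of all genes, and members called lower 26.9%, beside 37.2%. At 2-fold or more, 11 members (21.2%) were higher, beside 13.7% of all genes, and 4 (7.69%) were lower, beside 9.05%. The median log2 fold change (knockout over wild type) was 0.13 over members and 0.01 over all genes tested, and the median absolute value was 0.56 and 0.46. In 39 members (75.0%) the 3 knockout libraries and the 3 wild-type libraries did not overlap, beside 77.3% of all genes.

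**Figure D1:**
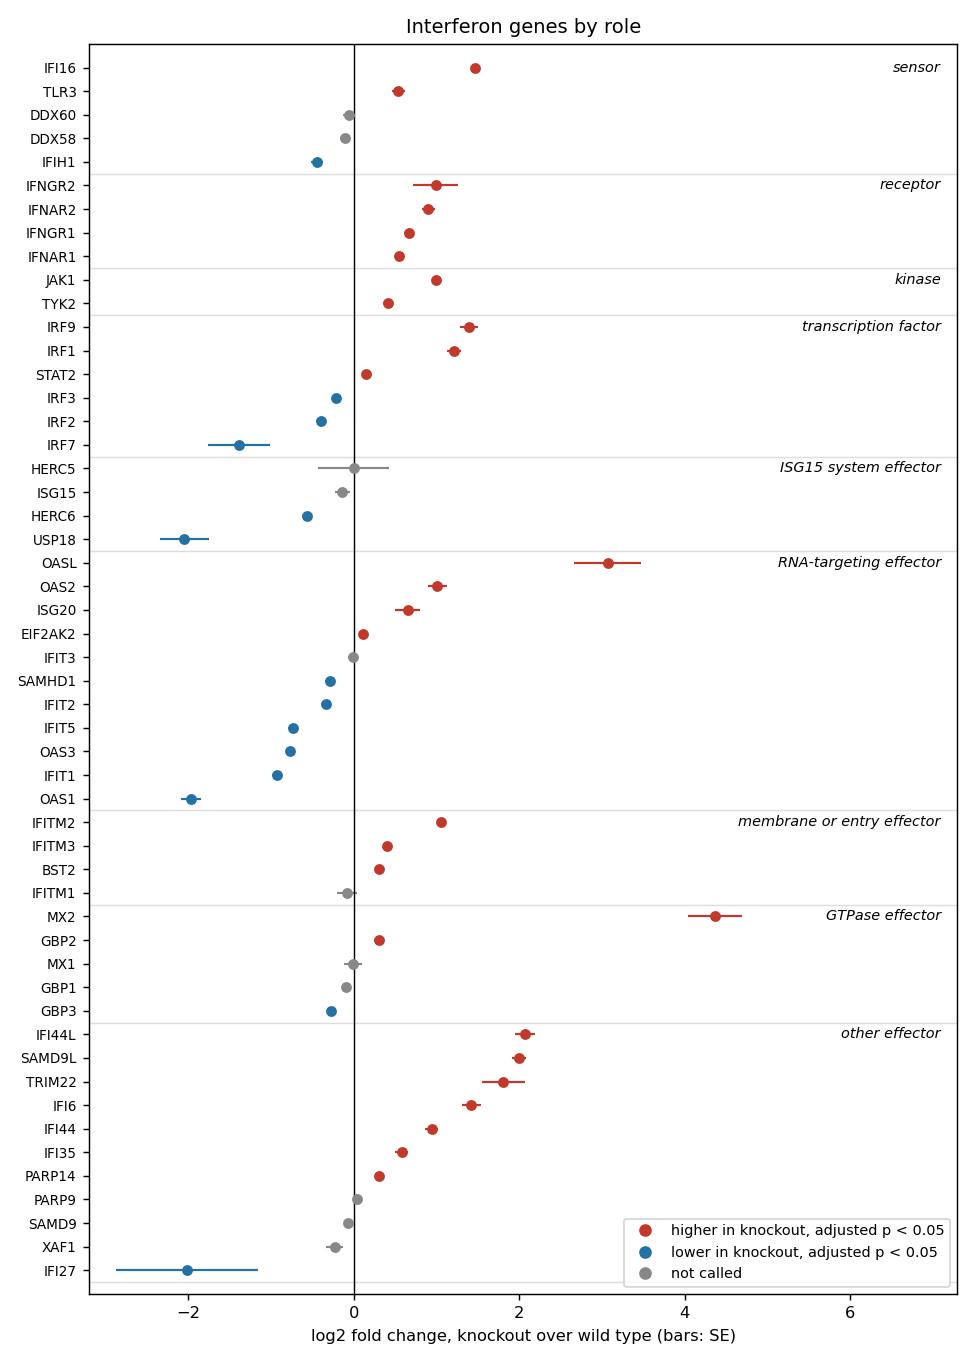
Log2 fold change (knockout over wild type) of each of the 52 members on the x axis with its standard error as a bar, grouped by role down the page and coloured by call. All 4 receptor chains and both kinases lie to the right of 0, while the effectors spread from -2.05 (USP18) to 4.37 (MX2).

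Libraries held 36925338 to 40905209 counts in the knockout clone and 40536085 to 41724447 in the wild-type clone, and levels are given as CPM, counts per 1000000 counts of the library. AQP1 itself had 10, 7 and 7 counts in the knockout clone and 2, 8 and 10 in the wild-type clone, so its RNA, near the limit of detection in both clones, does not check the labels. Of 8 biliary epithelial markers, summed CPM was 2710 to 2780 in knockout and 6390 to 6430 in wild-type libraries, and all 8 fell, with log2 fold changes of -0.17 (KRT7) to -3.63 (EPCAM). Among 12 immune markers PTPRC, CD2, LST1, TYROBP, MS4A1 and NKG7 had 0 counts in all 6 libraries. The summed level of that list was 205 to 211 CPM in knockout and 107 to 113 CPM in wild-type libraries. Nearly all of it was CD68, a lysosomal protein gene also used by other cells. CD14 rose too, at 1.46 ± 0.179 CPM in the knockout and 0.509 ± 0.058 CPM in the wild-type clone (log2 fold change 1.46). Of 4 plasmacytoid dendritic cell markers CLEC4C, LILRA4 and IL3RA were at 0 throughout. TCF4, the other, fell to 0.924 ± 0.176 CPM in the knockout, against 2.89 ± 0.211 CPM in the wild-type clone (log2 fold change -1.70). Fibroblast markers summed to 35.5 to 38.4 CPM in knockout and 15.9 to 18.1 CPM in wild-type libraries. There, 4 of 5 tested genes were higher (DCN, PDGFRA, PDGFRB and LUM, at log2 fold changes of 1.65 to 4.63). COL1A1 was not called (-0.18), at 9.07 ± 2.10 CPM in the knockout and 9.89 ± 0.589 CPM in the wild-type clone. COL1A2, COL3A1 and THY1 were at or near 0 in both clones. DCN, at 4.63, had 0, 0 and 4 counts in wild-type libraries. It passed the filter on low counts through the knockout libraries and had to differ. Endothelial markers summed to 2.15 to 3.06 CPM in knockout and 2.18 to 2.59 CPM in wild-type libraries. The part of the shift in epithelial and fibroblast markers in the results below was not tested.

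Promoters are shown here because members of one family, lying side by side, differed between the clones in different ways. RefSeq lists a promoter window (250 bases before to 50 bases after the start of transcription, GRCh38.p14) for 40 of the 52 members. GBP2, IFIT2, IFITM2, IFNAR2, IRF2, IRF3, IRF7, MX2, OAS2, OASL, TRIM22 and USP18 are named only. Each window was searched on both strands for the core of the interferon-stimulated response element, here GAAA, any 2 bases and GAAA again. Its matches can overlap each other. The 8 windows below run 5′ to 3′ on the strand of the gene, with matches in capitals. IFI44L, IFI6 and SAMD9L rose in the knockout clone, SAMD9 and IFIT3 were not called, and IFIT1, OAS3 and OAS1 fell.
IFI44L (chr1:78620198-78620497, plus strand): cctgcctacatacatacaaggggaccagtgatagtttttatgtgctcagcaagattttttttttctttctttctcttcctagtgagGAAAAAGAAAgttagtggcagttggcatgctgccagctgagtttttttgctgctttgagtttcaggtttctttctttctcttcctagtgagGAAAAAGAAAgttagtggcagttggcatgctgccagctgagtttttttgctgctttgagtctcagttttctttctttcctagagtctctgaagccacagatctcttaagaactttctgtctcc
IFI6 (chr1:27672143-27672442, minus strand): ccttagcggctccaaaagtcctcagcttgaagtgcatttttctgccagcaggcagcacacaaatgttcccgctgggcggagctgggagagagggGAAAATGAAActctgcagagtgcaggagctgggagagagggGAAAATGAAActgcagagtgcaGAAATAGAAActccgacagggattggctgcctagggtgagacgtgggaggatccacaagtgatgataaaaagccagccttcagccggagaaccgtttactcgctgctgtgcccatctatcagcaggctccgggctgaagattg
SAMD9L (chr7:93148336-93148635, minus strand): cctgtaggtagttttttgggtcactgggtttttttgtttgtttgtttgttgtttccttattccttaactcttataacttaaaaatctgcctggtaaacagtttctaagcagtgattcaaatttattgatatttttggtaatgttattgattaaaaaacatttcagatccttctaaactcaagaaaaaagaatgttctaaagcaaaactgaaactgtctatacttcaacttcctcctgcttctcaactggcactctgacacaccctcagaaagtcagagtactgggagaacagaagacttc
SAMD9 (chr7:93117930-93118229, minus strand): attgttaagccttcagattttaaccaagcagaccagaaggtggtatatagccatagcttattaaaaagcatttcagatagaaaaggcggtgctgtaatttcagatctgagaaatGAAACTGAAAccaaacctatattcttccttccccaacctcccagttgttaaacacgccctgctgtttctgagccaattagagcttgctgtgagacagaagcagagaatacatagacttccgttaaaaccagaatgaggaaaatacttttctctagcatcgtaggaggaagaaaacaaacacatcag
IFIT3 (chr10:89327747-89328046, plus strand): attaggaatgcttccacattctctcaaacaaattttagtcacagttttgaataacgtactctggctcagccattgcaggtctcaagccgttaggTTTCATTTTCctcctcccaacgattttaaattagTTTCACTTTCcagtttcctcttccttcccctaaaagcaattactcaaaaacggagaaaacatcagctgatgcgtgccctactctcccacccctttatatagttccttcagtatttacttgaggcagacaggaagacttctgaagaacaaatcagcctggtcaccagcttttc
IFIT1 (chr10:89392373-89392672, plus strand): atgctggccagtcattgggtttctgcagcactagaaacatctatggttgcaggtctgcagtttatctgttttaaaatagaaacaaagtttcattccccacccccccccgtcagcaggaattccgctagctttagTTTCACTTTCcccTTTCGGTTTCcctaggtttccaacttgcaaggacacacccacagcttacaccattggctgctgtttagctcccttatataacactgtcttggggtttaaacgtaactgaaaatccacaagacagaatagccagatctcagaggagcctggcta
OAS3 (chr12:112938224-112938523, plus strand): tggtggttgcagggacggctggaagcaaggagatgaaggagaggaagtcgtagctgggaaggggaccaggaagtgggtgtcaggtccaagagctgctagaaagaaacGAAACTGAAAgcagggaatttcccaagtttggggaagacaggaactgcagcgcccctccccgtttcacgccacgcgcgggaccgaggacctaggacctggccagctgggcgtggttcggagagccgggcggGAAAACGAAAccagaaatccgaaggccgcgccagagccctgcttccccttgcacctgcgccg
OAS1 (chr12:112906712-112907011, plus strand): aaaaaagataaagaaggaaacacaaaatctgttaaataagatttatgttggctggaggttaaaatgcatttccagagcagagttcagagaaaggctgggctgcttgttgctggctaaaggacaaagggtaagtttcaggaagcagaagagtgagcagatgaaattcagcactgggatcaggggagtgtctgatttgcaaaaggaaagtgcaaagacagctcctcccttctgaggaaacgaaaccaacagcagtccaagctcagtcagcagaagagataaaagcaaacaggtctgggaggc

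The core was found in 24 of these 40 member promoters (60%), beside 4.38% of the promoters of all 27305 genes in the RefSeq table and 4.04% of those of tested genes. Where a gene has several listed windows, as 10 members do, a match in any of them was counted. Of the 24 members with the core, 9 rose, 6 fell and 9 were not called, with a median log2 fold change of -0.01. Of the 16 members without it, 11 rose, 3 fell and 2 were not called, with a median of 0.56. Over all genes tested, 37.1% were called higher and 37.2% lower. Every receptor, kinase and transcription factor with a listed window was among those without the core (IFNAR1, IFNGR1, IFNGR2, JAK1, TYK2, STAT2, IRF1 and IRF9). All of these rose. The other members without it went both ways, so the split by core is also a split by role. MX2, OASL and USP18, among the largest differences, have no listed window. IFI6 carries 3 matches and rose. IFIT1 carries 2 and fell, whereas IFIT3, with 2, was not called. SAMD9L and OAS1, which hold no match in these windows, were among the largest differences in opposite directions. The OAS1 window does hold gaaacgaaa, a closer spacing that the search did not count. TTCNNNGAA, the core of the gamma-activated site, was in 12 of the 40 (30.0%), beside 9.4% of all promoters. Of those 12, 6 rose, 3 fell and 3 were not called. A match describes letters only, and its absence says only that these letters are not in the window.

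**Figure D2:**
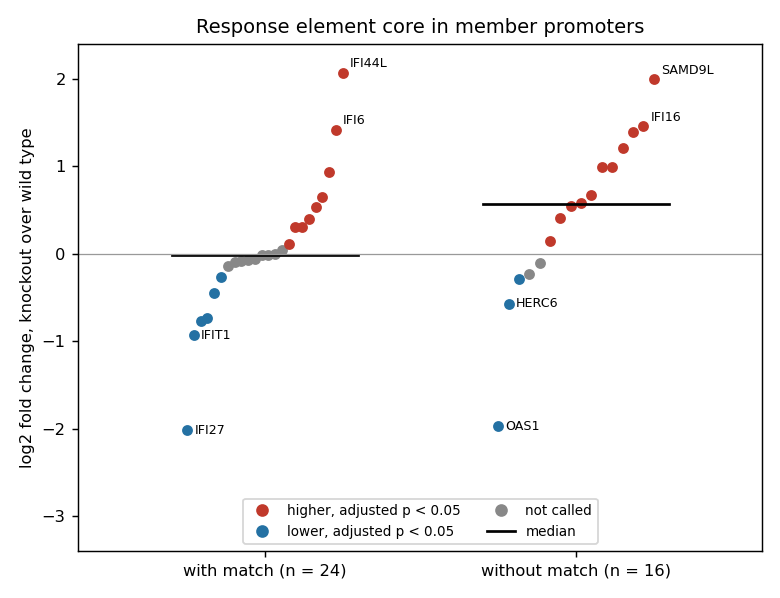
Log2 fold change (knockout over wild type) on the y axis of the 40 members with a listed promoter, 1 point a gene coloured by call, for the 24 with and the 16 without the response element core. The medians (black lines) are -0.01 and 0.56, and the points run from -2.02 to 2.07 with the core and from -1.97 to 2.0 without it. All receptors, kinases and transcription factors shown are in the group without the core.

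The sensors differed in different directions. IFI16, a nuclear DNA-binding protein linked to innate sensing of DNA, had 274, 271 and 279 CPM in the knockout libraries (a, b and c in that order here and below), against 93.0, 100.3 and 96.0 CPM in the wild-type libraries. The groups lay far apart, at a log2 fold change of 1.46 (SE 0.029, adjusted p = 4.19e-14). TLR3, the endosomal receptor of double-stranded RNA, had 16.6, 15.01 and 15.7 CPM in knockout libraries, against 10.1, 11.1 and 10.0 CPM in wild-type libraries (log2 fold change 0.54, adjusted p = 3.08e-05). IFIH1, which encodes the cytosolic RNA sensor MDA5, fell to 17.8, 18.0 and 16.1 CPM in knockout libraries, against 24.8, 21.3 and 22.2 CPM in wild-type libraries (log2 fold change -0.45, adjusted p = 8.17e-05).

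DDX58, which encodes the RNA sensor RIG-I, had 38.4 ± 2.70 CPM in the knockout and 39.8 ± 1.34 CPM in the wild-type clone (SD, n = 3 each), and its log2 fold change of -0.11 was not called (adjusted p = 0.131). Without knockout library a it was called at -0.15 (adjusted p = 0.0402). DDX60, a helicase linked to RIG-I signalling, was not called either, at -0.06 (adjusted p = 0.411). The sensors therefore comprised 2 rises, 1 fall and 2 genes without a call. Of all genes, 74.4% were called, 37.1% higher and 37.2% lower, so both directions were common there too.

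All 4 receptor chains rose, beside 37.1% of all genes. IFNAR1, a chain of the type I interferon receptor, had 79.5, 81.8 and 79.4 CPM in knockout libraries, against 56.0, 47.7 and 54.6 CPM in wild-type libraries (log2 fold change 0.55, adjusted p = 6.84e-07). IFNAR2, its partner chain, had 21.8, 20.5 and 19.5 CPM in knockout libraries, against 9.74, 11.2 and 11.0 CPM in wild-type libraries (log2 fold change 0.90, adjusted p = 1.45e-07). In GENCODE release 29 IFNAR2 shares 46.8% of its exon bases with a readthrough gene on the same strand and 41.4% with an antisense gene, so its level is uncertain. IFNGR1, the ligand-binding chain of the interferon gamma receptor, had 34.6, 35.2 and 37.7 CPM in knockout libraries, against 22.5, 21.6 and 20.9 CPM in wild-type libraries (log2 fold change 0.67, adjusted p = 1.43e-07).

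IFNGR2, the signalling chain of the gamma receptor, was the least even of them. It had 6.52, 4.64 and 7.75 CPM in knockout libraries, against 2.47, 2.01 and 4.65 CPM in wild-type libraries. The groups overlapped narrowly, since wild-type library c lay just above knockout library b, at a log2 fold change of 0.99 (SE 0.269, adjusted p = 0.0044).

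Both receptor-bound kinases rose as well, beside 37.1% of all genes. JAK1, used by type I and type II receptors alike, had 310.4, 309 and 315 CPM in knockout libraries, against 149, 155 and 148 CPM in wild-type libraries. The groups lay far apart, with a log2 fold change of 0.99 (SE 0.026, adjusted p = 4.3e-13). TYK2, the partner kinase at IFNAR1, had 64.0, 69.5 and 71.7 CPM in knockout libraries, against 51.5, 48.4 and 49.3 CPM in wild-type libraries (log2 fold change 0.41, adjusted p = 6.66e-06).

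Transcription factors divided evenly, with 3 rises and 3 falls, beside 37.1% of all genes called higher and 37.2% called lower. IRF9, the DNA-binding partner of STAT2, had 12.9, 11.7 and 12.8 CPM in knockout libraries, against 4.22, 4.99 and 4.53 CPM in wild-type libraries (log2 fold change 1.39, SE 0.107, adjusted p = 4.19e-08). No knockout library came near the wild-type range. A readthrough gene on the same strand covers 93.5% of the exon bases of IRF9, so reads of that transcript could be counted here. IRF1, an activator induced by interferon gamma, had 33.1, 33.3 and 33.1 CPM in knockout libraries, against 11.8, 13.8 and 16.0 CPM in wild-type libraries (log2 fold change 1.21, SE 0.086, adjusted p = 1.72e-08). STAT2 had 49.1, 51.2 and 53.6 CPM in knockout libraries, against 42.2, 44.3 and 47.0 CPM in wild-type libraries (log2 fold change 0.15, adjusted p = 0.0262). Its call was lost without knockout library c (adjusted p = 0.0553), wild-type library a (0.116) or wild-type library b (0.0509).

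The 3 falls were those of IRF7, IRF2 and IRF3. IRF7, the factor that amplifies type I interferon production, had 1.08, 1.27 and 0.487 CPM in knockout libraries, against 2.79, 3.15 and 1.29 CPM in wild-type libraries (log2 fold change -1.39, SE 0.375, adjusted p = 0.00427). Library c was the lowest of the 3 in each clone, and the highest knockout value lay just under the lowest wild-type value. IRF2, which competes with IRF1 for binding sites, fell by 0.40 on the log2 scale (adjusted p = 2.92e-05) and IRF3, the factor activated by sensors without new synthesis, by 0.21 (adjusted p = 0.00364). IRF3 shares 20.1% of its exon bases with BCL2L12 on the opposite strand. The library kit keeps strand, but whether the counting used strand is not given in the sources used here. Genes on the opposite strand also cover 69.9% of the exon bases of XAF1, 23.7% of IFITM3 and 18.8% of SAMHD1. C5orf56, opposite IRF1, covers 15.3% of it and itself rose by 2.59 on the log2 scale (adjusted p = 0.000212).

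The 4 genes of the ISG15 system held no rise, beside 37.1% of all genes called higher. They held 2 falls, beside 37.2% of all genes called lower, and 2 genes without a call. ISG15, a ubiquitin-like protein that is attached to other proteins, had 19.7, 17.2 and 18.3 CPM in knockout libraries, against 20.7, 16.6 and 21.5 CPM in wild-type libraries. The groups overlapped and the gene was not called (log2 fold change -0.14, adjusted p = 0.166). Without wild-type library b it was called at -0.25 (adjusted p = 0.0132). USP18, the protease that removes ISG15 and also restrains the type I receptor, fell to 0.661, 0.440 and 0.406 CPM in knockout libraries, against 1.75, 1.98 and 2.32 CPM in wild-type libraries (log2 fold change -2.05, SE 0.297, adjusted p = 2.65e-05). Of the 50-base words in USP18 transcripts 23.4% also occur in other genes, USP41 foremost, so its counts are uncertain.

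HERC5, the ligase that attaches ISG15 in human cells, stood at 0.566 ± 0.299 CPM in the knockout and 0.541 ± 0.142 CPM in the wild-type clone and was not called (log2 fold change 0.00, SE 0.431). HERC6, its neighbour, fell to 23.01 ± 1.05 CPM in the knockout, against 32.9 ± 1.48 CPM in the wild-type clone (SD, n = 3 each; log2 fold change -0.57, adjusted p = 1.15e-06).

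Among 11 effectors that act on RNA or nucleotides, 4 rose (36.4%, beside 37.1% of all genes), 6 fell (54.5%, beside 37.2%) and IFIT3 was not called. OASL, an enzymatically inactive relative of the oligoadenylate synthetases, had 1.27, 1.74 and 1.95 CPM in knockout libraries, against 0.173, 0.290 and 0.0959 CPM in wild-type libraries. The groups did not overlap, at 195 counts in the knockout libraries together and 23 in the wild-type libraries (log2 fold change 3.07, SE 0.404, adjusted p = 1.03e-05). OASL reached the filter level on low counts, 0.245 CPM, in only 1 of 3 wild-type libraries, so it passed through the knockout libraries and had to differ. OAS2, a synthetase whose product activates RNase L, had 9.70, 8.90 and 8.80 CPM in knockout libraries, against 4.19, 4.67 and 4.24 CPM in wild-type libraries (log2 fold change 1.01, SE 0.115, adjusted p = 2.57e-06). OAS1, another synthetase, fell to 3.06, 2.49 and 3.06 CPM in knockout libraries, against 10.4, 10.6 and 11.5 CPM in wild-type libraries (log2 fold change -1.97, SE 0.125, adjusted p = 5.35e-09). OAS3, the synthetase with the largest protein, fell to 52.6, 50.7 and 50.5 CPM in knockout libraries, against 82.8, 85.4 and 84.0 CPM in wild-type libraries (log2 fold change -0.77, adjusted p = 4.44e-10). None of the 3 OAS genes had overlapping groups, as was so for 77.3% of all genes tested. OAS2 alone of the 3 rose.

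The IFIT proteins bind viral RNA ends and act on translation. IFIT1 fell to 43.3, 41.6 and 37.2 CPM in knockout libraries, against 77.9, 75.0 and 71.5 CPM in wild-type libraries (log2 fold change -0.93, adjusted p = 5.89e-09). IFIT5 fell by 0.74 on the log2 scale (adjusted p = 8.16e-08) and IFIT2 by 0.34 (adjusted p = 0.000168). IFIT3, which stabilises IFIT1, had 39.4 ± 0.512 CPM in the knockout and 38.2 ± 2.56 CPM in the wild-type clone (SD, n = 3 each) and was not called (adjusted p = 0.917). ISG20, an exonuclease gene, rose by 0.65 on the log2 scale (adjusted p = 0.00127), and SAMHD1, which depletes nucleotides needed by viruses, fell by 0.29 (adjusted p = 0.000665). EIF2AK2, which encodes the RNA-activated kinase PKR, had 135 ± 3.86 CPM in the knockout and 121 ± 4.17 CPM in the wild-type clone (log2 fold change 0.11, adjusted p = 0.00907), a call that did not hold once wild-type library c was left out (adjusted p = 0.0638).

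Of 4 genes for proteins that act on viruses at membranes, 3 rose (75.0%, beside 37.1% of all genes) and 1 was not called. IFITM2, which blocks fusion in endosomes, had 128, 134 and 129 CPM in knockout libraries, against 60.6, 61.2 and 58.4 CPM in wild-type libraries (log2 fold change 1.06, SE 0.032, adjusted p = 2.47e-12). IFITM3, a close relative, had 223, 224 and 222 CPM in knockout libraries, against 165, 163 and 161 CPM in wild-type libraries (log2 fold change 0.40, adjusted p = 3.94e-09). IFITM1, the relative found mainly at the cell surface, was not called, at 7.76 ± 0.363 CPM in the knockout and 7.89 ± 1.07 CPM in the wild-type clone (adjusted p = 0.577). The 3 genes are near copies: 34.1% of the 50-base words of IFITM2, 32.0% of those of IFITM1 and 17.4% of those of IFITM3 occur in other genes, so reads may be split among them. BST2, which tethers budding virus (tetherin), rose by 0.31 on the log2 scale (adjusted p = 2.16e-05).

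Among 5 interferon-induced GTPase genes was MX2, the member with the largest fold change. MX2, a dynamin-like protein that restricts HIV, had 3.40, 2.59 and 2.55 CPM in knockout libraries, against 0.148, 0.145 and 0.0959 CPM in wild-type libraries (log2 fold change 4.37, SE 0.33, adjusted p = 3.39e-08). The wild-type libraries held 16 counts of MX2 together and the knockout libraries 339, a ratio per total count of 22.1 with an exact 95% counting interval of 13.4 to 39.0. Every wild-type library was under the filter level of 0.245 CPM for MX2, which therefore also passed through the knockout libraries and had to differ. MX1, the neighbouring GTPase that restricts influenza virus, had 9.41, 8.34 and 8.69 CPM in knockout libraries, against 9.15, 7.67 and 8.82 CPM in wild-type libraries, and was not called (log2 fold change -0.01, adjusted p = 0.936). The guanylate-binding proteins attack vacuoles that hold pathogens, and those among the members differed little. GBP3 had 72.5, 71.0 and 75.1 CPM in knockout libraries, against 82.7, 86.1 and 84.1 CPM in wild-type libraries, a fall of modest size with no overlap (log2 fold change -0.27, adjusted p = 8.88e-06). GBP2 rose by 0.30 on the log2 scale (adjusted p = 0.000361) and GBP1 was not called at -0.09 (adjusted p = 0.145). They share 4.76 to 10.2% of their 50-base words with other genes.

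The remaining 11 effectors held 7 rises (63.6%, beside 37.1% of all genes), 1 fall (9.09%, beside 37.2%) and 3 genes without a call. IFI44L, of unsettled function, had 19.5, 19.1 and 16.8 CPM in knockout libraries, against 4.39, 3.51 and 4.84 CPM in wild-type libraries (log2 fold change 2.07, SE 0.118, adjusted p = 1.69e-09). SAMD9L, a growth-restraining antiviral factor, had 31.9, 27.1 and 31.0 CPM in knockout libraries, against 6.69, 8.16 and 6.85 CPM in wild-type libraries (log2 fold change 2.0, SE 0.088, adjusted p = 1.15e-10). TRIM22, an antiviral ubiquitin ligase, had 2.52, 2.20 and 2.19 CPM in knockout libraries, against 0.543, 0.605 and 0.743 CPM in wild-type libraries (log2 fold change 1.81, SE 0.258, adjusted p = 2.22e-05). In all 3 genes the lowest knockout library was well above the highest wild-type library.

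IFI6, a small mitochondrial and endoplasmic reticulum protein gene, had 12.2, 11.7 and 13.4 CPM in knockout libraries, against 4.47, 3.90 and 4.99 CPM in wild-type libraries (log2 fold change 1.42, SE 0.117, adjusted p = 8.33e-08). IFI44 rose by 0.94 on the log2 scale, IFI35 by 0.58 and PARP14, an ADP-ribosyltransferase gene, by 0.31. PARP9 (0.04), SAMD9 (-0.07) and XAF1 (-0.23, adjusted p = 0.0547) were not called. SAMD9 was called without wild-type library c at -0.10 (adjusted p = 0.0183) and XAF1 without knockout library c at -0.31 (adjusted p = 0.0132).

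IFI27, a widely used marker of type I interferon exposure, was erratic. It had 0.833, 0.636 and 0.108 CPM in knockout libraries, against 0.0493, 1.84 and 4.39 CPM in wild-type libraries, which is 34, 26 and 4 counts against 2, 76 and 183. The wild-type libraries alone spanned the whole knockout range, and the groups overlapped. Its log2 fold change of -2.02 (SE 0.861, adjusted p = 0.0478) was -0.89 without wild-type library c (adjusted p = 0.39), and its call was also lost without knockout library b (0.0663), knockout library c (0.134) or wild-type library b (0.0666).

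**Figure D3:**
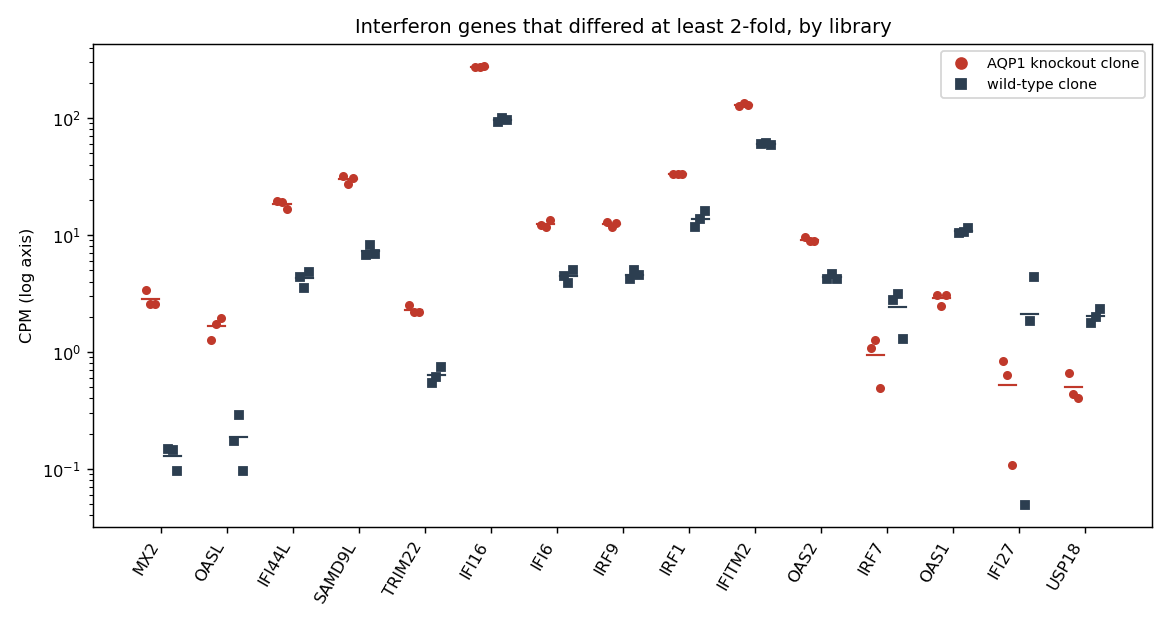
CPM (log axis) of the 15 members that were called and differed at least 2-fold, with 1 point a library, the knockout clone left of the wild-type clone and a line at each mean. Points of a group lie close together in most genes, while IRF7 and IFI27 scatter widely and IFI27 alone has overlapping groups.

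Levels between genes were compared per kilobase of exon (GENCODE release 29). The median member stood at 8.82 CPM per kb in the knockout and 8.0 CPM per kb in the wild-type clone. IFITM3 was the most abundant member in both clones, at 184 CPM per kb in the knockout and 134 in the wild-type clone. IFITM2 (123), IFI16 (93.8), BST2 (78.4) and JAK1 (61.7) came next in the knockout, whereas the order in the wild-type clone was BST2 (61.1), IFITM2 (56.8), IFI16 (32.9) and JAK1 (29.8). HERC5 (0.158) and USP18 (0.236) were the lowest in the knockout, and MX2 (0.0426) and OASL (0.0571) in the wild-type clone. Summed over the 52 members, the level was 2516.5 to 2539.6 CPM in knockout and 1940.3 to 1978.5 CPM in wild-type libraries. IFI16, JAK1, IFITM2 and IFITM3, chosen after their values were seen, made up 935 to 945 CPM of it in knockout and 463 to 479 CPM in wild-type libraries. The other 48 summed to 1577.8 to 1604.5 CPM in knockout and 1477.3 to 1499.7 CPM in wild-type libraries.

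Many members lie in tandem families, and 24 of them form 20 pairs within 100 kb of each other. Within a library, the log2 ratio of the counts of such a pair measures unequal change between neighbours on the same stretch of chromosome. The knockout and wild-type ratios did not overlap in 18 of the 20 pairs (90.0%), beside 68.7% of all 26305 pairs of tested genes within that distance. In 7 pairs (35.0%) they differed by 1 or more on the log2 scale, close to the 31.4% of all such pairs. Families share members among pairs, so the pairs are not independent. The exceptions to separation were IFNGR2 with IFNAR1 and HERC5 with HERC6. No test was made of these ratios, since the unequal values were already known.

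On chromosome 12, OAS1 (chr12:112906962-112933219, RefSeq on GRCh38.p14 here and below), OAS3 (chr12:112938474-112973251) and OAS2 (chr12:112978519-113011723) follow each other on the same strand. The log2 ratio of OAS2 to OAS1 was 1.66, 1.83 and 1.52 in knockout libraries, against -1.30, -1.19 and -1.44 in wild-type libraries, so the more abundant of the pair in counts changed over. OAS2 against OAS3, 5.3 kb apart, gave -2.49 ± 0.04 in the knockout and -4.26 ± 0.07 in the wild-type clone (SD, n = 3 each). On chromosome 21, MX2 (chr21:41362027-41409393) and MX1 (chr21:41420558-41459214) are 11.2 kb apart, with a log2 ratio of -1.64 ± 0.16 in the knockout and -5.93 ± 0.38 in the wild-type clone. On chromosome 7, SAMD9 (chr7:93099518-93117979) and SAMD9L (chr7:93130056-93148385) are 12.1 kb apart, and the log2 ratio of SAMD9L to SAMD9 was -2.09 ± 0.08 in the knockout and -4.16 ± 0.13 in the wild-type clone.

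IFI44L (chr1:78620448-78646145) and IFI44 (chr1:78649789-78664078) both rose, yet their log2 ratio was -0.22 ± 0.22 in the knockout and -1.36 ± 0.17 in the wild-type clone. In the IFIT cluster of chromosome 10, IFIT3 against IFIT1 gave -0.04 ± 0.10 in the knockout and -0.97 ± 0.04 in the wild-type clone, while IFIT5 against IFIT1, 8.1 kb apart, gave -0.19 ± 0.07 in the knockout and -0.39 ± 0.14 in the wild-type clone. The receptor genes IFNAR2, IFNAR1 and IFNGR2 on chromosome 21 rose together.

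**Figure D4:**
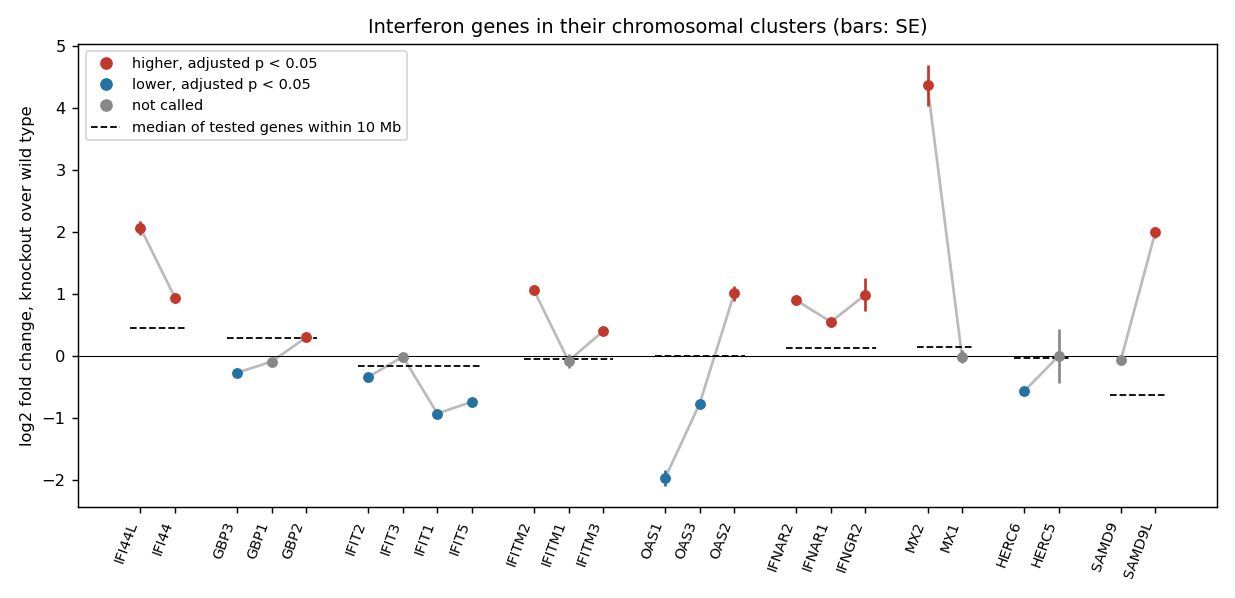
Log2 fold change (knockout over wild type, bars are SE) of the 24 members that lie within 100 kb of another member, in chromosomal order within each of 9 clusters. Dashed lines give the mean of the members' 10 Mb neighbour medians, which lies between -0.63 and 0.46, and genes joined by a grey line sit on the same stretch yet take different values in the OAS, MX, SAMD9 and IFITM clusters.

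Genes on the same stretch of chromosome may shift together between clones, and such shifts were not tested here. Each member was set beside the median log2 fold change of the tested genes within 10 Mb on each side. These medians ran from -0.63 (around SAMD9 and SAMD9L) to 0.51 (around IRF1 on chromosome 5), and 39 of the 52 lay within 0.2 of 0. All 41 called members kept the sign of their change relative to that median. With most medians this near 0, few of them could have lost it. Some called members hardly differed from their neighbour median: STAT2 by 0.00, GBP2 by 0.01, EIF2AK2 by 0.06 and SAMHD1 by -0.06. With 5 Mb on each side, STAT2 did not keep its sign and EIF2AK2 differed by 0.00. Of the 15 members past 2-fold, 14 still differed from their neighbours by 1 or more on the log2 scale. The exception was IRF1, at 1.21 with neighbours at 0.51. No share over all genes was set beside either count. For JAK1 the neighbours stood at 0.32, for ISG20 at 0.45, and for IFI44 and IFI44L at 0.46, all in the direction of the member. SAMD9L rose while its neighbours had a median of -0.63, and for USP18 (-2.05) the neighbours stood at -0.58. Around the receptor genes of chromosome 21 the median was 0.13. The part of these stretches in the members' changes was not tested.

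Other genes of the pathway were taken from a list of 88 that are not members. Of the 70 that were tested, 29 rose, 27 fell and 14 were not called (80.0% called, beside 74.4% of all genes), with a median of 0.01. The interferon genes on the list were barely present, and genes of the IFNA family other than IFNA1 were not on it. Of 8 ligand genes on the list, IFNK, IFNL1, IFNL3 and IFNG had 0 counts in all 6 libraries. IFNB1 had 1 count and IFNL2 had 2, all in wild-type library a. IFNA1 had 0, 1 and 3 counts in knockout libraries and 0 in each wild-type library. IFNE, an epithelial type I interferon, was the only ligand with enough counts to be tested, at 0.637, 1.05 and 1.33 CPM in knockout libraries, against 0.370, 0.484 and 0.503 CPM in wild-type libraries (log2 fold change 1.09, adjusted p = 0.0174). A count of 0 allows up to 0.0733 to 0.0812 CPM in a knockout library and 0.0719 to 0.0740 CPM in a wild-type library (3 counts, counting error only). Of the receptor chains for interferon lambda, IFNLR1 fell to 7.99 ± 1.22 CPM in the knockout, against 15.6 ± 1.71 CPM in the wild-type clone (log2 fold change -1.02, adjusted p = 2.15e-06), and IL10RB rose by 0.87.

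Of 12 tested sensors and adaptors outside the member list, 9 fell (75.0%, beside 37.2% of all genes) and 3 rose (25.0%, beside 37.1%). TMEM173, which encodes the DNA-signalling adaptor STING, had 8.01, 8.41 and 7.28 CPM in knockout libraries, against 2.02, 1.33 and 1.82 CPM in wild-type libraries (log2 fold change 2.14, adjusted p = 5.92e-08). AIM2, the DNA sensor of an inflammasome, had 6.86, 6.31 and 7.42 CPM in knockout libraries, against 1.68, 1.11 and 0.935 CPM in wild-type libraries (log2 fold change 2.41, adjusted p = 1.14e-07). MB21D1, which encodes the DNA sensor cGAS upstream of STING, fell by 0.89 on the log2 scale, and DHX58, an RNA helicase of the RIG-I family, by 1.01. Falls were also seen in the adaptors MAVS (-0.20), TICAM1 (-0.80) and MYD88 (-0.54) and the kinases TBK1 (-0.23) and IKBKE (-0.75). The remaining falls were those of DDX60L (-0.81) and TRIM25 (-0.41), and RNF135 rose by 0.45.

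Factors and feedback inhibitors outside the members gave 4 rises (33.3%, beside 37.1% of all genes), 4 falls (33.3%, beside 37.2%) and 4 genes without a call. SOCS1, a feedback inhibitor of JAK kinases, rose to 0.934 ± 0.201 CPM in the knockout, against 0.242 ± 0.039 CPM in the wild-type clone (log2 fold change 1.87, adjusted p = 0.000587), whereas SOCS3 was not called. CIITA, the master factor of MHC class II genes, had 113 counts in the knockout libraries together and 3 in the wild-type libraries, a ratio of 39.2 per total count (exact 95% counting interval 13.1 to 193). IRF5, an activator of inflammatory genes, fell by 1.16 (adjusted p = 0.0138).

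Of 50 further interferon-stimulated genes, 43 were tested. Of these, 20 rose (46.5%, beside 37.1% of all genes), 13 fell (30.2%, beside 37.2%) and 10 were not called. The largest rises were GBP5, a guanylate-binding protein, with 53 counts in the knockout libraries together and 4 in the wild-type libraries, and ETV7 (log2 fold change 1.44, adjusted p = 0.0317), both near the limit of detection. For GBP5, ETV7 and CIITA no wild-type library reached the filter level of 0.245 CPM, and for SLFN11 no knockout library did, so these genes passed through 1 clone and had to differ. SLFN11, which sensitises cells to DNA damage, had 0 counts in the knockout libraries and 48 in the wild-type libraries, at least 15.4-fold lower in the knockout (floor of 3 counts over the group). LAMP3, a lysosomal membrane gene, fell to 3.04 ± 0.211 CPM in the knockout, against 12.9 ± 0.513 CPM in the wild-type clone (log2 fold change -2.14, adjusted p = 5.76e-10). RSAD2, which interferon strongly induces in many cells, had 0, 0 and 2 counts in knockout libraries and 0, 0 and 2 in wild-type libraries, too few to be tested. CXCL9 had 0 counts in all 6 libraries.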

How the data were processed

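Polyadenylated RNA of HuCCT1 clones was sequenced from a strand-keeping library kit, per the labels' protocols. Trimmomatic 0.33, FastQC, HISAT2, edgeR and the build hg38 are named in the submitters' processing notes. No counter, strand setting or annotation is named (not given in the sources used here). The authors deposited 1 table of whole-number counts per gene and library, with 26485 rows, of which 28 carry date-like names in place of gene symbols and 7009 are 0 in all 6 libraries.

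The main test was the quasi-likelihood F test of edgeR 4.0.16 (R 4.3.3) on the whole table of counts, after filterByExpr and TMM scaling. The filter left 14405 genes and removed 12080. P-values were adjusted by Benjamini-Hochberg over all tested genes, with a threshold of 0.05, and the SE was taken as absolute log2 fold change over the root of the F statistic. CPM values were computed from library totals and carry SDs over 3 libraries. Intervals and floors (3 counts) cover counting error only. The alternatives were limma-voom (limma 3.58.1), DESeq2 1.42.0, other scalings and filters, a 1.5-fold test, a block on letters, and each library left out. The fit was tested on simulated data.

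Exon lengths, exon overlaps and shared 50-base words came from GENCODE release 29, and promoter windows and coordinates from RefSeq on GRCh38.p14. Every member was described by its role. Values per library were given for members called at 2-fold or more, and for the largest rise and fall in each role. In the pathway lists the 2 largest rises and falls were named, and others named were chosen after their values were seen. A result that this rule would name is not reported here. The members and lists were chosen with earlier results of these data known.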

Additional observations from a re-analysis of the deposited data

How the results depend on the processing

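The limits are 1 clone per genotype, 3 libraries each, and low counts in members such as IFI27, HERC5, USP18, IRF7, OASL and MX2. Tested against a change of 1.5-fold in place of 0, edgeR called 14 members higher and 6 lower, against 27 and 14 when tested against 0. The same test called 4354 genes in all (10711 against 0), and 8 pathway genes higher and 14 lower (29 and 27 against 0). With the letters as a replicate block, 27 members were higher and 14 lower, and 10599 genes were called in all. Same-letter libraries had correlations of 0.058 (a), -0.019 (b) and 0.008 (c) between their deviations from the group means. Libraries with unlike letters had -0.05 to 0.041. The labels do not say whether a letter marks a shared day or batch. With 1 library left out at a time, 26 to 27 members were higher and 13 to 15 lower. IFI27 lost its call under DESeq2 (adjusted p = 0.205), the replicate block (-1.44, 0.198), library totals (0.0554) and limma-voom (-1.01, 0.499), and XAF1 gained one under limma-voom (0.0398) and the block (0.0496). Of the 41 called members, 20 kept their call against 1.5-fold and 21 lost it, IFI27 alone among those past 2-fold. Outside that test 38 kept their call in each alternative that tested them, and IFI27, STAT2 and EIF2AK2 lost it in at least 1. Only uncalled members near 0 changed sign: HERC5 (0.02 under DESeq2, 0.01 under RLE, 0.05 under library totals, 0.00 with no filter, and -0.41 to 0.35 without single libraries), IFIT3 (0.01, 0.01 and 0.05 under the same scalings, 0.01 with a 1 CPM minimum, and -0.06 to 0.04), MX1 (0.00, 0.00, 0.04, 0.01, and -0.09 to 0.04) and IFITM1 (-0.18 to 0.01). The causes of these shifts were not tested.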
